A study of Mus musculus with 60 samples.

Results

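The 4 bacterial orders described here were Erysipelotrichales and the wall-less or uncultured Bacilli RF39, Acholeplasmatales and Mycoplasmatales. Members were the rows of the deposited feature table whose taxonomy label carried 1 of these order names, 205 of 8574 features. Erysipelotrichales held 97 of them, RF39 held 88, Acholeplasmatales held 16 and Mycoplasmatales held 4. The labels divided them into 21 genera.

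Male mice were studied in 2 arms of 6, and the labels give no strain or age. PET mice received polyethylene terephthalate nanoparticles, a plastic used in bottles and fibres, by daily gavage at 0.5 mg per day in 0.1 ml for 28 days. Control mice were labelled as not exposed, and no label says whether they received a vehicle. In each arm the 16S rRNA gene, a marker that identifies bacteria, was sequenced from 6 libraries each of stool at week 1, stool at day 28, colon at day 28, lung at day 28 and oral swab at day 28. Stool and swab DNA was extracted with a soil kit with bead beating, and colon and lung DNA with a blood and tissue kit. A contrast of lung or colon with stool therefore changes the kit as well as the site, and the kit and the site cannot be told apart there. The labels do not say which libraries came from the same mouse, so library numbers only name libraries within a group. The p-values measure the spread between these libraries.

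Erysipelotrichales are anaerobic or facultative Bacilli of the intestine and mouth, and several of its genera ferment sugars and respond to diet and bile acids. Acholeplasmatales, represented by Anaeroplasma, and Mycoplasmatales are bacteria without a cell wall, which keep small genomes and take much of what they need from the host or from other microbes. RF39 is a lineage known from gut sequences and not from cultures, and its genomes are also small.

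Values are shares, a taxon's percentage of the library's counts assigned to bacteria or archaea. A share is lower where a taxon is scarcer or where other bacteria are more abundant, and these cannot be told apart. Those totals ran between 16513 and 1082777 in stool, 55824 and 278584 in colon, 10083 and 321277 in lung, and 119446 and 428630 in oral swabs. The shallowest were lung PET library 6 with 10083 and stool week 1 control library 1 with 16513. Oral swabs, colon and stool carried taxa known from those sites, and no such list was set for lung. Muribacter and Streptococcus, bacteria of the mouse mouth, together made up 76.6% of oral swab counts in PET mice and 85.3% in control mice. Helicobacter, which lives in colonic mucus, made up 66.6% of colon counts in PET mice and 63.5% in control mice. Lachnospiraceae and Muribaculaceae, the main families of mouse stool, made up 38% of day 28 stool counts in PET mice and 37.6% in control mice. In lung the mouth genera made up 2.36% in PET mice and 1.73% in control mice, Helicobacter 0.719% and 1.38%, and the 2 stool families 11.8% and 13.2%.

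The 4 orders together were a minor part of every site. They held 167908 of 17066323 counts, 0.984% of the total, of which Acholeplasmatales had 0.613%, Erysipelotrichales 0.232%, Mycoplasmatales 0.102% and RF39 0.0372%. These sums weight deep libraries more. By the mean share of the 60 libraries, a measure added after the data were seen, Erysipelotrichales had 0.477%, Acholeplasmatales 0.450%, Mycoplasmatales 0.054% and RF39 0.0298%. In stool at week 1 the 4 orders summed to 2.28 ± 1.22% in PET mice and 1.38 ± 0.84% in control mice (mean and SD, n = 6 each). At day 28 they summed to 1.05 ± 0.551% and 1.04 ± 0.654% of stool counts in PET and control mice. In lung the sums were 1.69 ± 2.11% in PET mice and 2.23 ± 1.92% in control mice. Colon carried less, 0.132 ± 0.104% in PET mice and 0.131 ± 0.137% in control mice, and oral swabs carried 0.0569 ± 0.065% in PET mice and 0.118 ± 0.104% in control mice. Every lung library was above every colon library in this sum. How many other taxa separated lung from colon in this way was not counted. Stool and lung had overlapping sums from different orders: Acholeplasmatales led in stool and Erysipelotrichales led in lung.

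**Figure D1:**
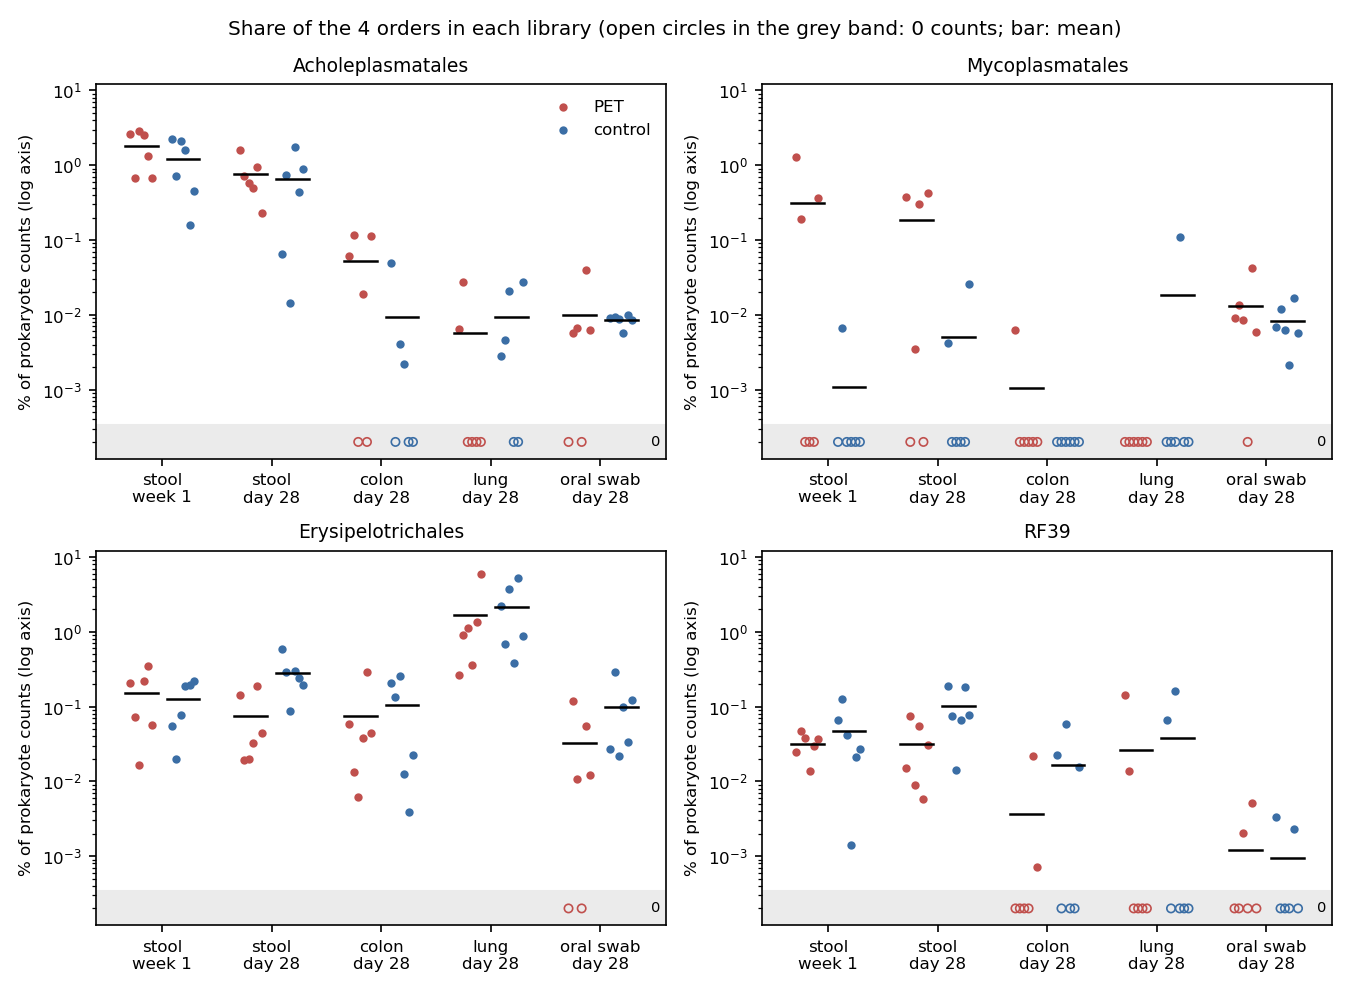
Share of prokaryote counts (percent, log axis) of each of the 4 orders in every library, by site and time, with PET in red on the left of each pair and control in blue on the right. Horizontal bars are means of 6 libraries and open circles in the grey band are libraries with 0 counts. Acholeplasmatales is highest in stool, and Erysipelotrichales is highest in lung, where all 12 libraries lie between 0.260% and 5.91%.

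Acholeplasmatales was almost a single feature. All 16 of its features were labelled Anaeroplasma, a strictly anaerobic wall-less genus first known from the rumen, and 1 feature held 104160 of its 104604 counts, 99.6%. That feature was counted in 45 of the 60 libraries. The other 15 features were rare, and 13 of the 16 occurred in 1 library each.

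Anaeroplasma was counted in all 24 stool libraries. At week 1 it made up 2.63%, 0.684%, 2.88%, 2.54%, 1.31% and 0.671% of counts in PET mice, and 2.23%, 0.71%, 2.08%, 1.6%, 0.159% and 0.447% in control mice. At day 28 it made up 1.58%, 0.709%, 0.583%, 0.495%, 0.949% and 0.231% in PET mice, against 0.0641%, 0.751%, 0.0144%, 1.76%, 0.44% and 0.897% in control mice. The arms overlapped at both times, and 2 control libraries at day 28, numbers 1 and 3, were far below the rest of either arm. Outside stool the genus was sparse. In colon it was counted in 4 PET libraries, with shares of 0.0619%, 0.117%, 0.0192% and 0.114%, and in 3 control libraries, with 0.0497%, 0.00411% and 0.00223%. In lung it averaged 0.00566% in PET mice and 0.00927% in control mice, with 4 PET libraries and 2 control libraries at 0. In oral swabs all 6 control libraries carried it in a narrow band, 0.00858 ± 0.00153%, whereas PET libraries ranged between 0 and 0.0401% with a mean of 0.00982 ± 0.0151%.

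Mycoplasmatales was also nearly 1 feature. Its 4 features were all labelled Mycoplasma, a genus that lives attached to mucosal surfaces, and the first held 17144 of 17352 counts, 98.8%. The classifier gave that feature the species label Metamycoplasma sualvi, a name first given to bacteria of pig intestine, with a confidence of 1. The feature labelled Metamycoplasma salivarium, a resident of the human mouth, was counted in lung control library 4 alone, at 0.111% and a confidence of 0.963.

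In stool at week 1, Mycoplasma counts in PET libraries were 8167, 866, 0, 0, 0 and 4003, shares of 1.29%, 0.189%, 0%, 0%, 0% and 0.37%. Control libraries had 0 counts except library 2, with 30 counts or 0.0066%. At day 28 the PET counts were 923, 0, 18, 1362, 0 and 1386, with a mean share of 0.184 ± 0.205%, against 25, 0, 0, 0, 0 and 85 in control mice, with a mean of 0.00506 ± 0.0105%. In all, 7 of 12 PET stool libraries and 3 of 12 control stool libraries had a count. The high values were therefore in some PET libraries and not in others, and the PET libraries at 0 overlapped the controls.

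Most oral swabs carried Mycoplasma, at a low level. Shares were 0.00921%, 0.0135%, 0.00853%, 0%, 0.0423% and 0.00581% in PET mice, and 0.00677%, 0.0121%, 0.00636%, 0.00212%, 0.017% and 0.00578% in control mice. The arms overlapped, and 11 of the 12 swab libraries had a count. In colon the genus had 7 counts in PET library 1 and 0 of 976911 counts over the control libraries, which allows a share of up to 0.000307%. In lung it had 0 of 290827 counts over the PET libraries, which allows up to 0.00103%. Such limits cover counting error only, since amplified reads are not independent molecules.

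RF39 was spread over many rare features. Of its 88 features, 64, or 72.7%, occurred in 1 library, no feature occurred in more than 10 libraries, and the most abundant held 24.6% of the order's 6357 counts. Across all prokaryote features, 73.8% occurred in 1 library. RF39 was counted in all 24 stool libraries. At week 1 its stool shares were 0.025%, 0.0465%, 0.0381%, 0.0139%, 0.03% and 0.0372% in PET mice, and 0.0666%, 0.127%, 0.0418%, 0.00143%, 0.0212% and 0.0267% in control mice. At day 28 they were 0.0151%, 0.0739%, 0.00883%, 0.0549%, 0.00576% and 0.031% in PET mice, against 0.19%, 0.075%, 0.0142%, 0.067%, 0.181% and 0.078% in control mice. At day 28, 4 control libraries exceeded the highest PET library and 2 fell within the PET range.

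Outside stool RF39 was patchy. In colon it was counted in 2 PET libraries, at 0.0215% and 0.000718%, and in 3 control libraries, at 0.0228%, 0.0593% and 0.0157%. In lung it was counted in 2 libraries of each arm, at 0.143% and 0.0137% in PET mice and at 0.0651% and 0.161% in control mice. None of the 5 RF39 features of the lung was counted in any stool library, and of all 3607 prokaryote features of the lung 14.2% were. One of them, labelled as a human gut sequence, had 176 counts, all in lung PET library 1. In oral swabs the order averaged 0.00121% in PET mice and 0.000953% in control mice, with a count in 2 libraries of each arm.

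Erysipelotrichales held 18 genus labels and was present in every stool, colon and lung library. By counts over all libraries its largest parts were unclassified Erysipelotrichaceae with 22.2% of the order's 39595 counts, Holdemanella with 16.9%, Erysipelatoclostridium with 14.8%, Coprobacillus with 14.1% and Catenibacterium with 10.9%. Single lung libraries carried most of 2 of these: control library 1 held 5509 of the 6703 Holdemanella counts, and control library 5 held 4805 of the 5596 Coprobacillus counts. By the mean share of the 60 libraries Catenibacterium led with 0.154%, before Coprobacillus with 0.0805%, Holdemanella with 0.0738% and unclassified Erysipelotrichaceae with 0.0352%. In stool at week 1 the order made up 0.204%, 0.072%, 0.0166%, 0.221%, 0.348% and 0.0561% of counts in PET mice, and 0.0545%, 0.02%, 0.0769%, 0.19%, 0.195% and 0.219% in control mice. The arms overlapped. At day 28 it made up 0.143%, 0.0191%, 0.0198%, 0.0327%, 0.188% and 0.0439% in PET mice, against 0.588%, 0.288%, 0.0873%, 0.301%, 0.24% and 0.194% in control mice. Here 5 of 6 control libraries were above the highest PET library.

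In lung Erysipelotrichales made up 0.26%, 0.907%, 1.13%, 0.355%, 1.37% and 5.91% in PET mice, and 2.23%, 0.692%, 3.67%, 0.378%, 5.15% and 0.871% in control mice. The arms overlapped throughout. The highest value, in PET library 6, rested on 596 of 10083 counts, with a 95% Wilson interval of 5.47% to 6.39%. In colon it made up 0.0583%, 0.0135%, 0.0062%, 0.0384%, 0.29% and 0.0442% in PET mice, and 0.203%, 0.134%, 0.254%, 0.0126%, 0.00392% and 0.0227% in control mice. In oral swabs it made up 0%, 0.117%, 0.0109%, 0%, 0.0556% and 0.0122% in PET mice, and 0.0275%, 0.294%, 0.0218%, 0.0985%, 0.0341% and 0.124% in control mice.

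In colon the libraries richest in Helicobacter had the lowest shares of the 4 orders. Both are shares of the same total, so where Helicobacter fills most of a library every other taxon must be low. The relation is therefore no result about the members. Control libraries 4, 5 and 6, with 96.4%, 95.1% and 87.6% Helicobacter, carried 0.0149%, 0.00392% and 0.0384% of the 4 orders together, whereas control libraries 1, 2 and 3, with 43.3%, 12.4% and 46.1%, carried 0.276%, 0.134% and 0.317%. Among control libraries 1, 2 and 3, library 2 had the least Helicobacter and also the lowest share of the 4 orders. In PET mice, libraries 3 and 4 had 91.1% and 87.6% Helicobacter and 0.0062% and 0.0576% of the 4 orders. The other 4 PET libraries had between 39.6% and 78.3% Helicobacter and between 0.126% and 0.312% of the 4 orders. The part of Helicobacter in the colon results was not tested.

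The genera fell into a set highest in stool and a set highest in lung. By the mean of the 12 libraries of a site at day 28, 8 genera were highest in stool, 12 in lung and 1, Merdibacter with 22 counts in all, in oral swabs. Such a split was not made over all genera. Of the 257 genera tested in lung over stool, 66.1% were higher in lung and 17.1% lower, at an edgeR adjusted p under 0.05. A high lung share was thus not particular to the members. In the lung set, Faecalicoccus had 6 counts in all and Faecalitalea 46. The stool set was Anaeroplasma, Mycoplasma, RF39, unclassified Erysipelotrichaceae, Erysipelatoclostridium, Candidatus Stoquefichus, unclassified Erysipelatoclostridiaceae and Faecalibaculum, the last with 6 counts in 1 library. Within the stool set, unclassified Erysipelotrichaceae were counted in 23 of 24 stool libraries and averaged 0.075% at day 28. Erysipelatoclostridium, a spore-forming gut genus, was counted in 16 of 24, and Candidatus Stoquefichus, a gut lineage with a provisional name, in 19 of 24.

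**Figure D2:**
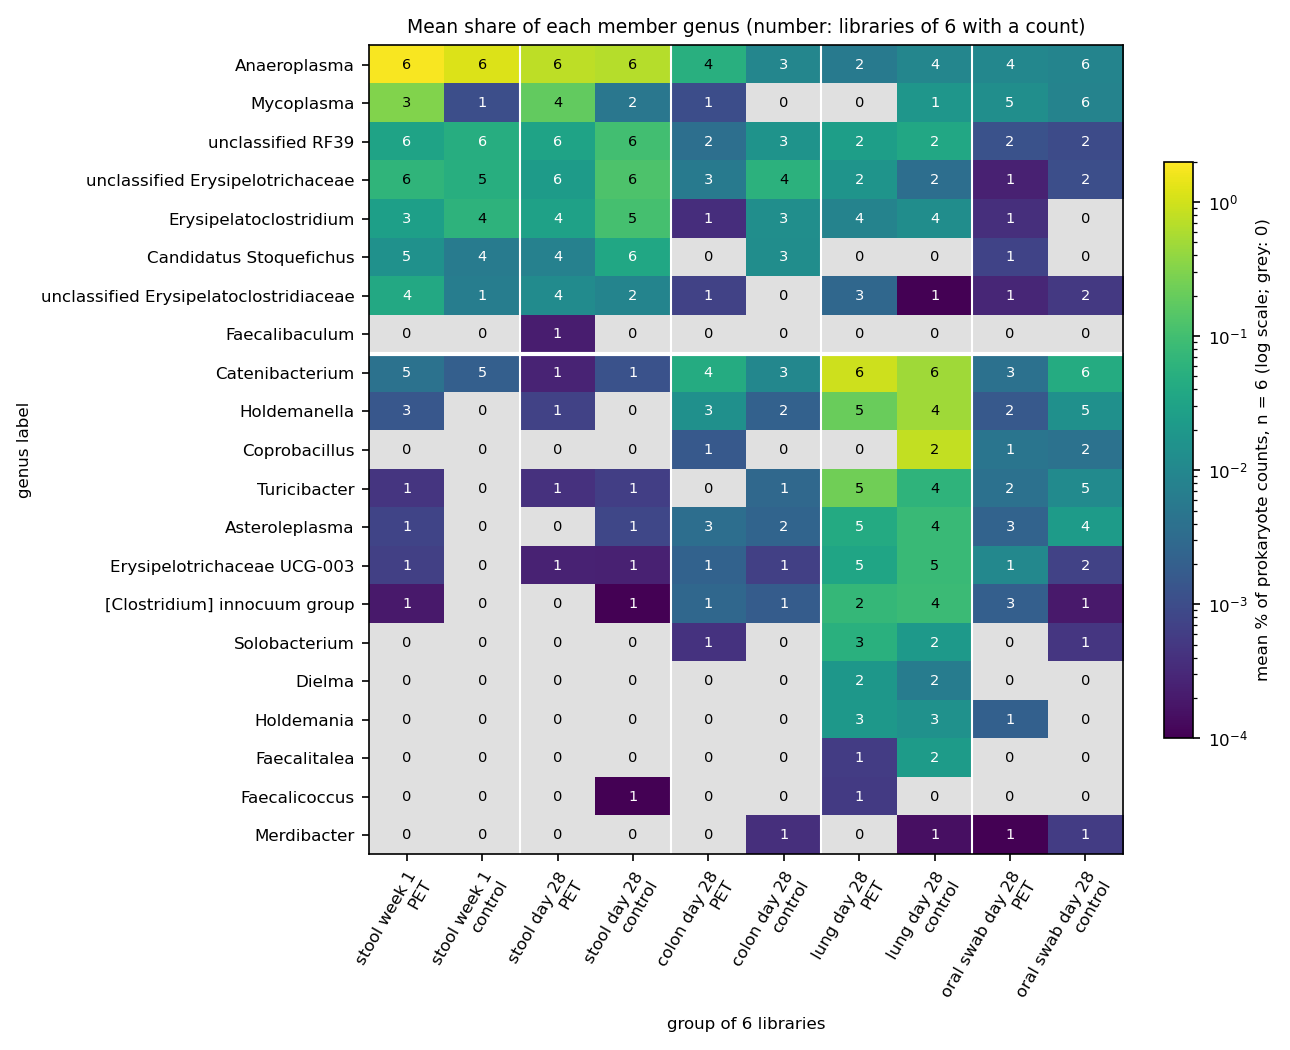
Mean share of prokaryote counts (percent, log colour scale) of the 21 member genera in the 10 groups, with the number of libraries out of 6 that had a count printed in each cell and grey for 0 counts. The white line separates the 8 genera highest in stool from the rest, and most of the rest have grey or near-empty stool columns and filled lung columns.

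Catenibacterium, a genus known mainly from human faeces, was the most abundant of the lung set. It made up 0.048%, 0.306%, 0.253%, 0.082%, 0.894% and 4.07% of lung counts in PET mice, and 0.00903%, 0.589%, 2.13%, 0.0904%, 0.00191% and 0.0899% in control mice. It was in all 12 lung libraries, while at day 28 it was in 1 stool library of each arm, with 4 counts in PET mice and 43 counts in control mice. Holdemanella, also described from human faeces, made up 0.0244%, 0.368%, 0.0567%, 0.0305%, 0% and 0.783% of lung counts in PET mice, against 1.71%, 0.0813%, 1.15%, 0.0144%, 0% and 0% in control mice. In stool it was counted in 4 of 12 PET libraries and in 0 of 12 control libraries.

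Coprobacillus was concentrated in 1 library. Its single feature, labelled Coprobacillus cateniformis with a confidence of 0.704, had 4805 counts in lung control library 5, 4.59% of that library, and 560 counts in lung control library 1. It had 0 counts in the 6 lung PET libraries and in all 24 stool libraries. Oral swabs had it at 0.0279% in PET library 2, and at 0.0079% and 0.0168% in control libraries 1 and 5. Solobacterium, Holdemania, Dielma and Faecalitalea averaged 0.0365%, 0.0173%, 0.0127% and 0.0117% over the 12 lung libraries and had 0 counts in stool at either time. Asteroleplasma, a wall-less genus that the labels place in Erysipelotrichales, averaged 0.0418 ± 0.0375% of lung counts in PET mice and 0.082 ± 0.132% in control mice.

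Genera usual in mouse intestine were few. Of 7 listed, 4 were in the table, and Dubosiella, Ileibacterium and Allobaculum, common in the intestine of laboratory mice, were no label of the features analysed here. Turicibacter, a genus of the mouse small intestine, was counted in 3 of 24 stool libraries, with 30 counts in week 1 PET library 6, 8 in day 28 PET library 6 and 23 in day 28 control library 1. In lung it averaged 0.233 ± 0.381% in PET mice and 0.0632 ± 0.102% in control mice. The PET mean rested on library 6, the shallowest, at 0.982%, and was 0.0832 ± 0.113% over the other 5 PET libraries. Without its highest library, number 6, the control mean was 0.0233 ± 0.0325%.

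Most member features of the lung were not counted in stool, and this held more often for the features of the lung in general. Of the 51 member features of the lung, 15 were also counted in stool, which is 29.4% of the lung features and 10.8% of the stool features. Over all prokaryote features the shared ones were 14.2% of the lung features and 15.1% of the stool features. Lung member features not counted in stool held 7731 of the 18410 lung counts of the 4 orders, 42%, where such features held 36.4% of all lung counts. Lung control library 5 had most of these member counts, and without it they were 2815 of 13018, 21.6%, a value computed after the data were seen. Colon shared 27 of its 44 member features with stool, 61.4% of the colon features and 19.4% of the stool features, against 57.6% and 30.1% over all features. Oral swabs shared 16 of 41, 39% of the swab features and 11.5% of the stool features, against 39.1% and 21.9% over all features. The difference of these shares from those over all features was not tested. The median number of member genera per library was 9 in PET and 8.5 in control lungs, 6 and 5.5 in PET and control stool at day 28, 3.5 and 4 in PET and control colon, and 6 and 8 in PET and control oral swabs.

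Genera known mainly from human stool had larger shares in lung than in stool. Of 9 Erysipelotrichales genera listed as known mainly from human stool, 7 were in the table: Catenibacterium, Holdemanella, Holdemania, Coprobacillus, Faecalitalea, the [Clostridium] innocuum group and Erysipelotrichaceae UCG-003. Their summed share in lung was 0.117%, 0.728%, 0.849%, 0.164%, 0.97% and 4.85% in PET mice, and 2.2%, 0.686%, 3.47%, 0.164%, 5.09% and 0.256% in control mice. In stool it did not exceed 0.0223%. Of 5 companion genera common in human stool, Faecalibacterium, Dialister, Megasphaera, Succinivibrio and Prevotella, the summed share in lung was 13.7%, 9.16%, 2.94%, 2.49%, 5.81% and 6.68% in PET mice, and 4.78%, 35.7%, 6.52%, 9.27%, 4.28% and 8.53% in control mice. Within lung the 2 sums did not go together. PET library 1 had the most companion genera of its arm and the least of the listed genera, and control library 5 had the least companion genera of its arm and the most of the listed genera. In stool it was at most 0.227% in PET mice, in week 1 library 6, and at most 0.154% in control mice, in day 28 library 1. These same 2 stool libraries had the highest sums of listed genera in stool, 0.0223% and 0.0088%.

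Colon PET library 5 had 15% companion genera and 0.29% listed genera, while the other 5 colon PET libraries had between 0.0718% and 1.19% companion genera and at most 0.0384% listed genera. Oral PET library 2 had 14.1% companion genera and 0.114% listed genera, against between 0.0427% and 0.237% companion genera and at most 0.023% listed genera in the other swab PET libraries. In oral control mice companion genera ran between 0.266% and 3.52% and listed genera between 0.0158% and 0.122%. The part of the companion genera in the site results was not tested.

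**Figure D3:**
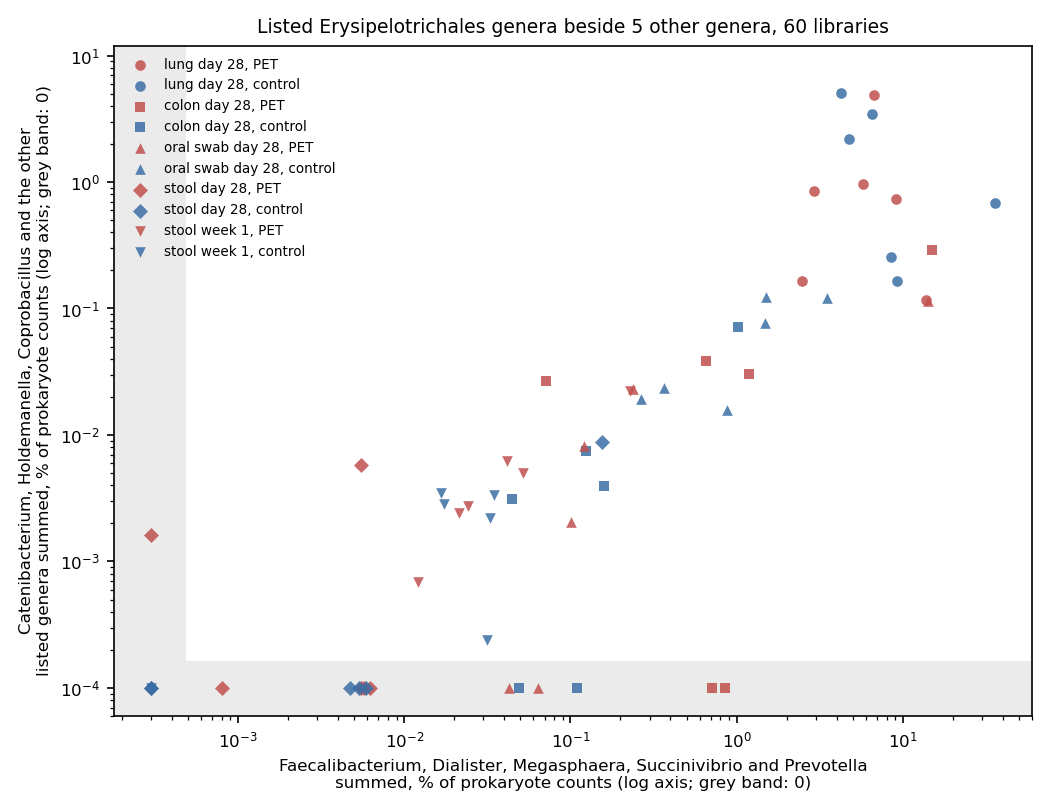
Summed share of the 7 listed human-stool Erysipelotrichales genera (vertical axis, percent, log scale) against the summed share of 5 companion genera (horizontal axis, percent, log scale) in each of the 60 libraries, by site and arm, with grey bands for 0. Lung libraries sit at the upper right, without a common order of the 2 sums among them, stool libraries sit at the lower left, and colon PET library 5 and oral PET library 2 lie with the lung libraries on the horizontal axis.

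The exposure contrast asked whether the members differed between PET and control mice at each site and time. Members were tested with all other taxa by edgeR's quasi-likelihood test with TMM scaling, after leaving out taxa with fewer than 10 counts or with counts in fewer than 3 libraries. Taxa with an adjusted p under 0.05 were called. In stool, lung and oral swabs no member was called at the level of order, genus or feature. The background there was also 0% of the orders, genera and features tested. In those groups DESeq2 called 2 member features, given below, and no member genus or order, and limma called no member genus or order. In colon 1 member was called, Candidatus Stoquefichus, among the 8 member genera tested, where 15.9% of all genera tested were called. It passed the low count filter through the control libraries alone, so it could enter the test only as lower in PET.

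In stool at week 1, 9 member genera, 4 orders and 21 member features were tested, and 2 of the 9 genera, Mycoplasma and Holdemanella, had an unadjusted p under 0.05, as had 14 of all genera tested. The Mycoplasmatales counts given above gave a log2 difference of 7.76 ± 2.70 (SE), higher in PET, with an edgeR adjusted p of 0.241. The exact two-sided permutation test of the same order gave p = 0.110, and 0.491 after adjustment over the orders. At the level of the single feature, DESeq2 called Mycoplasma feature 1 higher in PET stool, with a log2 difference of 8.08 and an adjusted p of 0.0374, whereas edgeR gave 8.20 and an adjusted p of 0.329. For Holdemanella, counts were 13, 0, 2, 0, 0 and 67 in PET libraries and 0 in all 6 control libraries, and the edgeR adjusted p was 0.370. Holdemanella passed the filter of 3 libraries through the PET group alone, so it could enter the test only as higher in PET. Against a floor of 3 counts over the control group it was at least 19.2-fold higher in PET, and at least 5.32-fold without PET library 6. Anaeroplasma showed a log2 difference of 0.00 ± 0.66 (edgeR adjusted p = 0.999).

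In stool at day 28, 7 member genera, 4 orders and 18 member features were tested, and 2 of the 7 genera, unclassified Erysipelotrichaceae and Mycoplasma, had an unadjusted p under 0.05, as had 9 of all genera tested. Erysipelotrichales averaged 0.0745 ± 0.0727% in PET mice and 0.283 ± 0.168% in control mice. Its log2 difference was −1.59 ± 0.69, with an edgeR p of 0.0371 and an adjusted p of 0.339. The exact two-sided permutation test gave p = 0.0152 and 0.273 after adjustment. RF39 averaged 0.0316 ± 0.0275% in PET mice and 0.101 ± 0.0696% in control mice, a log2 difference of −1.46 ± 0.73 (edgeR adjusted p = 0.353). Its exact permutation p was 0.0498, or 0.597 after adjustment. Neither order passed the threshold by either test.

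Within Erysipelotrichales at day 28, 3 genera of the stool set had higher means in control mice than in PET mice. Unclassified Erysipelotrichaceae averaged 0.0233 ± 0.0178% of stool counts in PET mice and 0.127 ± 0.174% in control mice, of which control library 1 alone had 0.474%. Their log2 difference was −2.43 ± 0.86 (edgeR adjusted p = 0.431). Erysipelatoclostridium averaged 0.0294 ± 0.0463% in PET mice and 0.109 ± 0.071% in control mice, with 5 control libraries between 0.0638% and 0.197% and control library 3 at 0. Candidatus Stoquefichus made up 0.0261%, 0.00638%, 0%, 0.0106%, 0% and 0.00429% in PET libraries, against 0.00216%, 0.0907%, 0.0456%, 0.0262%, 0.0453% and 0.0071% in control libraries, a log2 difference of −2.25 ± 1.40 (edgeR adjusted p = 0.814). At week 1 its means ran the other way, 0.0148 ± 0.0167% in PET mice and 0.0061 ± 0.00704% in control mice. Mycoplasmatales gave 5.19 ± 2.32 at day 28 (edgeR adjusted p = 0.339; exact permutation p = 0.123). Anaeroplasma gave 0.10 ± 0.84 (edgeR adjusted p = 0.985).

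**Figure D4:**
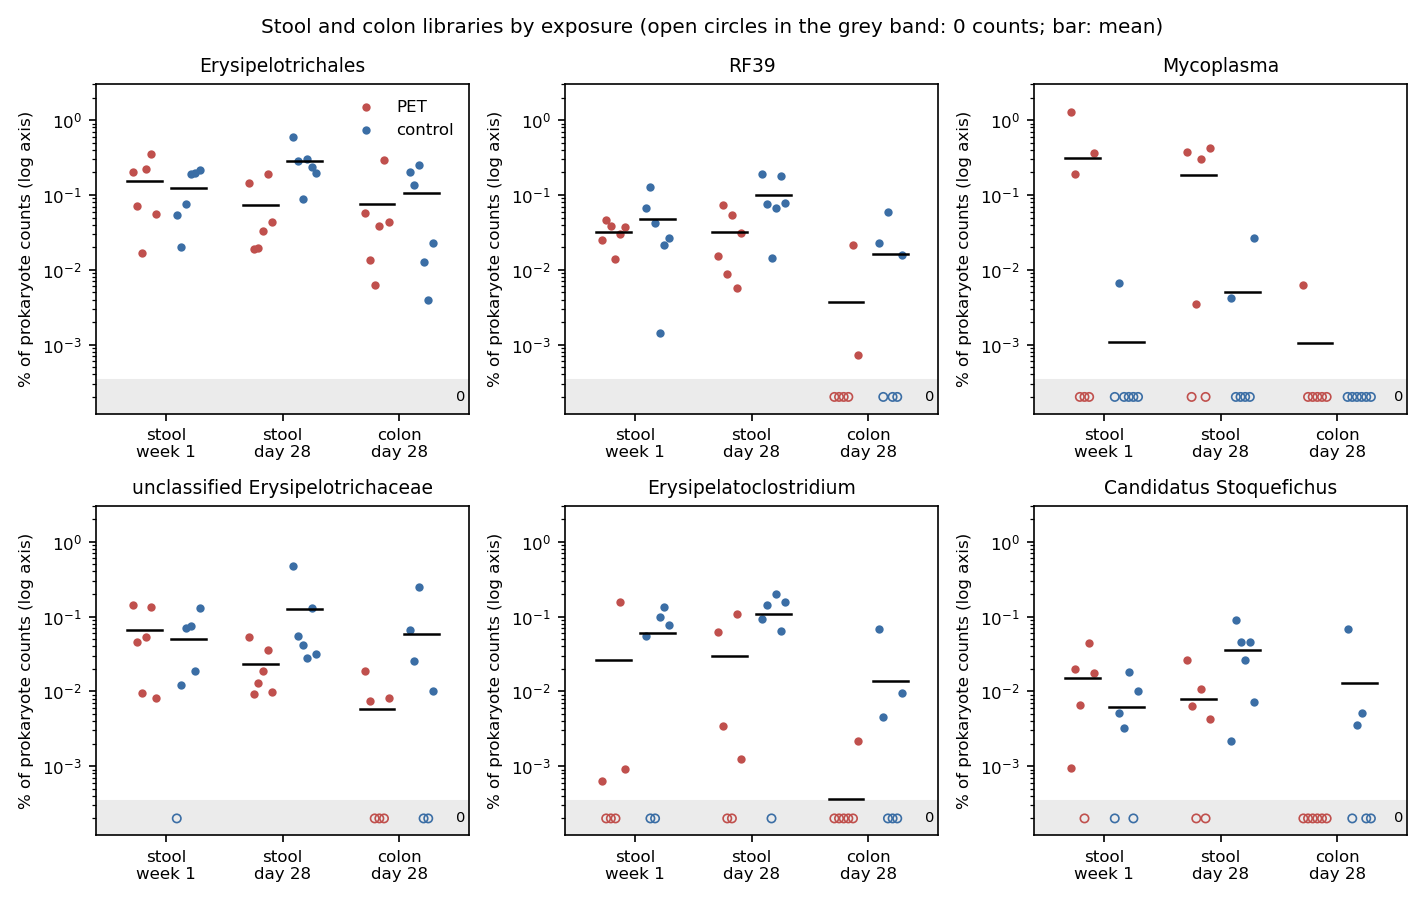
Share of prokaryote counts (percent, log axis) in every stool and colon library of 6 members, PET in red on the left and control in blue on the right of each pair, with means as bars and libraries at 0 in the grey band. At day 28 the stool means of Erysipelotrichales are 0.0745% in PET and 0.283% in control mice, and Candidatus Stoquefichus is at 0 in all 6 colon PET libraries.

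In colon the called genera were 15.9% of those tested, and 3 of them, 2.17%, were lower in PET. Candidatus Stoquefichus had 0 counts in all 6 PET libraries, against 165, 0, 6, 7, 0 and 0 in control libraries. It passed the filter of 3 libraries through the control group alone, so it could enter the test only as lower in PET. The edgeR fit gave −7.61 ± 2.64 on the log2 scale with an adjusted p of 0.0342, and a fitted value against 0 counts is no bound. With 3 counts over the PET group as the floor, it was at least 45.5-fold lower in PET, and at least 4.41-fold lower when control library 1 was left out. The call was lost with library totals in place of TMM (adjusted p = 0.0579), with DESeq2 (0.0731) and with limma on centred log ratios (0.395). Of the 9 fits that left out 1 library and still tested the genus, 4 kept the call. The edgeR fit of its single feature gave −7.23 with an adjusted p of 0.145, and none of the 5 member features tested was called, where 2.35% of the 468 features tested were.

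Of the 3 orders tested in colon none was called, where 12.2% of the 41 orders tested were. Acholeplasmatales averaged 0.0521 ± 0.0542% in PET mice and 0.00933 ± 0.0198% in control mice, a log2 difference of 2.18 ± 1.72 (edgeR adjusted p = 0.572). RF39 gave −3.17 ± 1.77 (edgeR adjusted p = 0.313), and with features under a classifier confidence of 0.8 left out it was called at −6.05 (edgeR adjusted p = 0.0376). Erysipelatoclostridium was counted in 1 PET library, with 6 counts, and in 3 control libraries, with 163, 8 and 12, a log2 difference of −5.23 ± 2.38 (edgeR adjusted p = 0.176).

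In lung, 14 member genera, 3 orders and 16 member features were tested. Of all 232 genera, 20 had an unadjusted p under 0.05, and none of the 14 members did. Erysipelotrichales gave a log2 difference of −2.08 ± 1.07 with an edgeR adjusted p of 0.639, and −0.39 with library totals. Holdemanella feature 1 had 18 counts in 1 PET library, against 5509, 33 and 84 counts in 3 control libraries, and edgeR gave −6.78 with an adjusted p of 0.137. Coprobacillus did not pass the low count filter. With no filter edgeR called it lower in PET, with an adjusted p of 0.00016, from counts in 2 control libraries. With 0 counts in PET it could be called only as lower. Control library 5 carries a later lab number, and no lung PET library does. Against a floor of 3 counts over the PET group Coprobacillus was at least 647-fold lower, and at least 77.7-fold lower without control library 5. These bounds cover counting error only and not the spread between libraries.

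In oral swabs, 12 member genera, 4 orders and 11 member features were tested, and 2 of the 12 genera, Catenibacterium and Holdemanella, had an unadjusted p under 0.05, against 7 of all 175 genera. Catenibacterium had 0, 7, 0, 0, 21 and 27 counts in PET libraries, against 22, 285, 42, 99, 13 and 317 in control libraries. It averaged 0.00408 ± 0.00628% in PET mice and 0.044 ± 0.0486% in control mice, a log2 difference of −4.05 ± 1.46 (edgeR adjusted p = 0.722). Its most abundant feature had 9 counts in 1 PET library, against 22, 91, 22, 27, 13 and 170 counts in the control libraries. DESeq2 called that feature lower in PET at −5.72 with an adjusted p of 0.00514, whereas edgeR gave −6.12 and an adjusted p of 0.405. Holdemanella gave −4.23 ± 1.76 (edgeR adjusted p = 0.786), and Erysipelotrichales as a whole −2.63 ± 1.21 (edgeR adjusted p = 0.513).

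The stool libraries at week 1 and day 28 allowed a contrast over time in each arm. No member was called in either arm or for the difference between the arms, and the background was 0% of 144 genera and of 45 orders. At an unadjusted p under 0.05, edgeR had 42 of all genera in PET stool, 25 in control stool and 34 for the interaction. Acholeplasmatales gave a log2 difference of −1.21 ± 0.82 in PET stool, day 28 over week 1 (edgeR adjusted p = 0.307), and −0.97 ± 0.81 in control stool (edgeR adjusted p = 0.485). Erysipelotrichales gave −0.88 ± 0.72 in PET stool and 0.93 ± 0.72 in control stool. The difference between these, −1.81 ± 1.01, had an edgeR p of 0.0863 and an adjusted p of 0.298.

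Catenibacterium was counted in 1 of 6 PET stool libraries at day 28 against 5 of 6 at week 1, and likewise in 1 of 6 control libraries at day 28 against 5 of 6 at week 1. limma on centred log ratios called it lower at day 28 in PET stool (−3.21, adjusted p = 0.0182), whereas edgeR gave −3.65 with an adjusted p of 0.165. In control stool edgeR called it when day 28 library 1, the only day 28 control library with counts, was left out (adjusted p = 0.0390, against 0 counts at day 28), where it gave −1.48 and an adjusted p of 0.707 with all libraries.

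The site contrasts at day 28 joined both arms, 12 libraries a site, with the arm as a covariate. The median over all genera lay above 0 in every site contrast, and its size depended on the scaling. With TMM the median log2 difference of all genera was 6.44 for lung over stool, 6.27 for oral swab over stool, 1.96 for colon over stool and 2.53 for lung over colon. With library totals those medians were 7.39, 3.20, 0.25 and 4.21. Member values are therefore read beside the median and the shares above. Some genera passed the low count filter only through the site where they were high, so the counts of called members describe those that passed and not all members.

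In lung over stool, 10 of 17 member genera tested were higher and 3 were lower, where 66.1% of the 257 genera tested were higher and 17.1% lower. Of the listed human-stool genera, 6 of 6 tested were higher, with a median log2 difference of 8.58 as fitted, or 8.65 with the 2 genera at 0 in stool set at their bounds. They were the [Clostridium] innocuum group at 10.09 ± 1.93, Holdemanella at 9.34 ± 2.04, Catenibacterium at 8.76 ± 1.82, UCG-003 at 6.38 ± 1.72, and Holdemania and Faecalitalea, both at 0 in stool. Their edgeR adjusted p ran between 1.51e-05 and 0.000774. Asteroleplasma (6.44), Turicibacter (5.92), Solobacterium and Dielma were the other 4. Holdemania, Faecalitalea, Solobacterium and Dielma passed the filter through lung alone, so they could enter the test only as higher in lung. Genera with 0 counts in stool have bounds only: against a floor of 3 counts over the stool group, Solobacterium was at least 555-fold, Holdemania at least 374-fold, Dielma at least 165-fold and Faecalitalea at least 72.3-fold higher in lung. Without the highest lung library of each, these bounds were 441, 307, 94.5 and 47.8. Of the mouse gut genera 3 were tested, 1 of them higher and 1 lower, with a median of −3.06. Against the median of all genera, Asteroleplasma stood at 0.00, UCG-003 at −0.05 and Turicibacter at −0.52.

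The 3 genera that fell in lung were of the stool set. That set was defined by the day 28 means of these same libraries, so the overlap largely follows from the definition. Anaeroplasma fell by 7.82 ± 1.33 on the log2 scale (edgeR adjusted p = 2.75e-06). Candidatus Stoquefichus had 0 counts in the 12 lung libraries and 1173 in the 12 stool libraries, and was at least 82.9-fold lower in lung, or at least 58.0-fold without the highest stool library (edgeR adjusted p = 0.00023). It passed the filter through stool alone, so it could enter the test only as lower in lung. Unclassified Erysipelatoclostridiaceae fell by 4.58 ± 2.00 (edgeR adjusted p = 0.0318), a call that 16 of 24 fits without 1 library kept. Among the 4 orders, 65.2% of the 66 orders tested being higher and 22.7% lower, Erysipelotrichales was higher and Acholeplasmatales lower. Acholeplasmatales fell by 8.61 ± 1.17 (edgeR adjusted p = 7.58e-08). Erysipelotrichales averaged 1.91 ± 1.95% in lung and 0.179 ± 0.165% in stool, a log2 difference of 2.33 ± 0.76 (edgeR adjusted p = 0.00501), which was below the median of 6.35 over all orders. On centred log ratios its sign turned, to −0.57, and DESeq2 gave 0.77 with an adjusted p of 0.249.

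**Figure D5:**
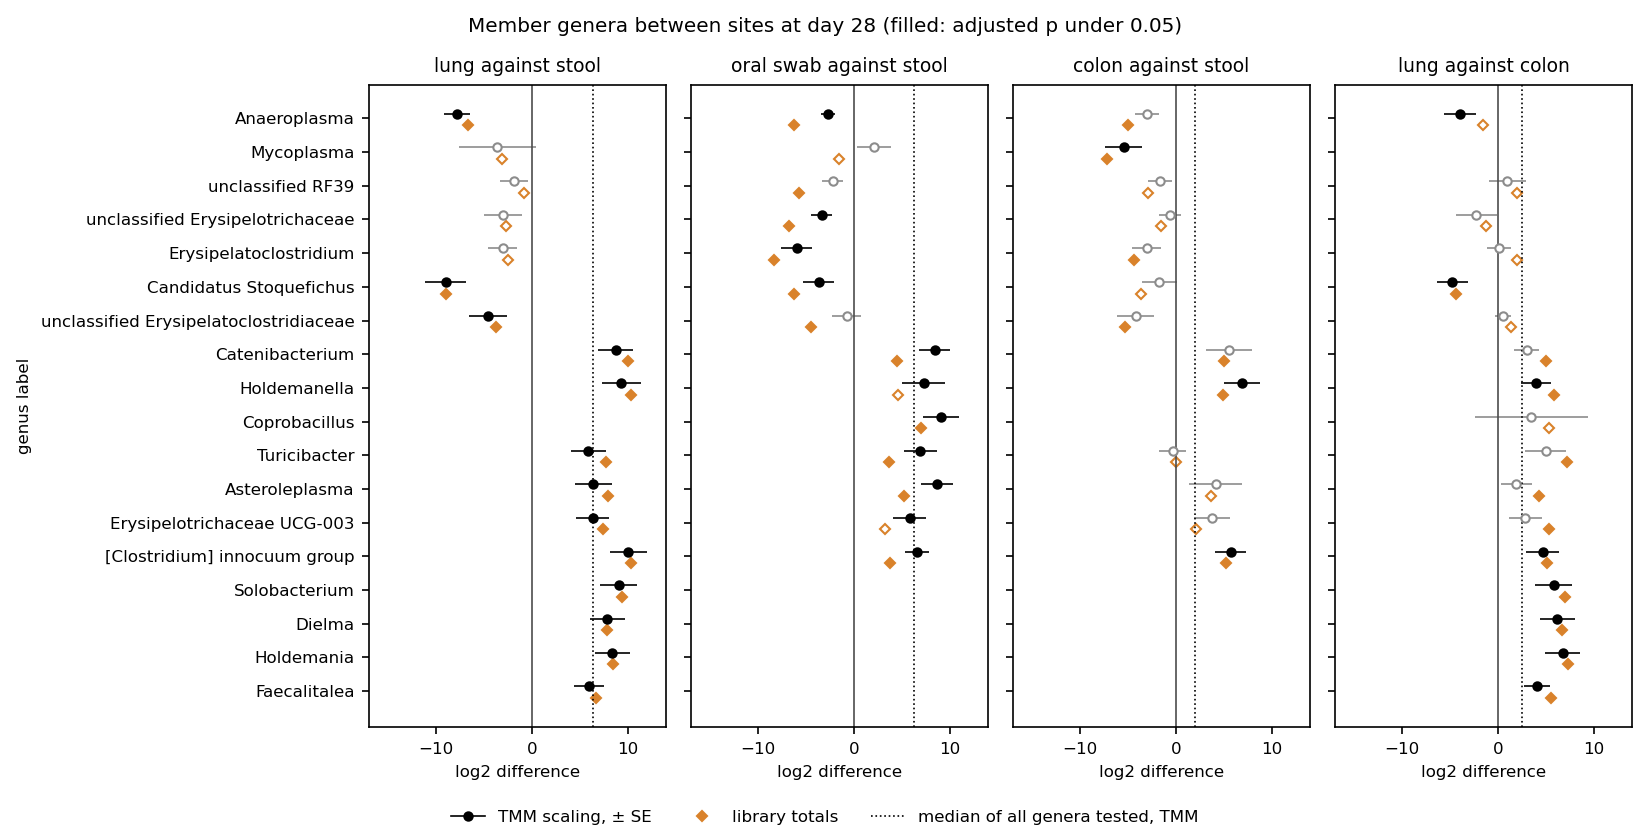
Log2 differences of the member genera at day 28 for lung over stool, oral swab over stool, colon over stool and lung over colon. Circles are edgeR values, no bounds where a genus had 0 counts at 1 site, with TMM scaling and their SE, filled black where the adjusted p is under 0.05, orange diamonds are values with library totals, filled by the same rule, and the dotted line is the median of all genera tested. Anaeroplasma lies left of 0 in all 4 panels, and Catenibacterium and Holdemanella lie right of 0 in all 4.

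In oral swab over stool, 7 of 14 member genera were higher and 4 lower, where 57.8% of the 199 genera tested were higher and 11.1% lower. The genera called higher were Coprobacillus, Asteroleplasma (8.70), Catenibacterium (8.44), Holdemanella (7.31), Turicibacter (6.96), the [Clostridium] innocuum group (6.57) and UCG-003 (5.82). Those that fell were Erysipelatoclostridium (−5.97), Candidatus Stoquefichus (−3.65), unclassified Erysipelotrichaceae (−3.37) and Anaeroplasma (−2.71). All 5 of the listed human-stool genera tested were higher, with a median of 7.31 as fitted, or 6.59 with Coprobacillus at its bound. Coprobacillus had 0 counts in stool and was at least 96.1-fold higher in swabs, or at least 49.2-fold without PET library 2. It passed the filter through swabs alone, so it could enter the test only as higher in swabs. Unclassified Erysipelotrichaceae were lower in every swab library than in every day 28 stool library, and so was RF39. How many of all genera and orders were separated in this way was not counted, so the separation is not shown to be particular to these members. Of the 4 orders 2 were lower, where 60.3% of the 58 orders tested were higher and 22.4% lower: Acholeplasmatales fell by 4.02 ± 0.75 (edgeR adjusted p = 4.05e-05) and RF39 by 3.15 ± 1.11 (edgeR adjusted p = 0.011). The Acholeplasmatales call was kept in 24 of 24 fits without 1 library, and the RF39 call in 13 of 24. Tested as a genus, on the same counts, RF39 missed the threshold (edgeR adjusted p = 0.0747). DESeq2, limma on centred log ratios, and edgeR with library totals, TMMwsp or a stricter filter called that genus lower in swabs. Erysipelotrichales was not called with TMM, at 0.50, or with library totals, at −1.35. Other settings called it in opposite directions. limma on centred log ratios called it lower in swabs (−3.53, adjusted p = 0.00011), whereas edgeR on all features of the deposited data called it higher (1.53, adjusted p = 0.0306), as did 9 of 24 edgeR fits without 1 library. Mycoplasma likewise gave 2.07 with TMM and −1.54 with library totals, and was not called by either.

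In colon over stool, 2 of 13 member genera were higher and 1 lower, where 28.5% of the 172 genera tested were higher and 4.07% lower. Holdemanella gave 6.93 ± 1.89 (edgeR adjusted p = 0.00833) and the [Clostridium] innocuum group 5.72 ± 1.61 (edgeR adjusted p = 0.00975), this one from 9 and 19 counts in 2 colon libraries and 1 count in stool. They were 2 of the 4 listed human-stool genera tested, which had a median of 5.65. Mycoplasma fell by 5.47 ± 1.89 (edgeR adjusted p = 0.0243), with 7 counts in colon and 3799 in stool. Of the 4 orders 3 were lower, where 52.1% of the 48 orders tested were higher and 14.6% lower. Mycoplasmatales fell by 5.74 ± 1.74 (edgeR adjusted p = 0.0059), Acholeplasmatales by 3.32 ± 1.11 (edgeR adjusted p = 0.0106) and RF39 by 2.12 ± 0.93 (edgeR adjusted p = 0.0485). The RF39 call was kept in 6 of 24 fits without 1 library. Tested as a genus, on the same counts, RF39 was not called (edgeR adjusted p = 0.302). DESeq2, limma on centred log ratios, and edgeR with a confidence of at least 0.8 or a stricter filter called that genus lower in colon. Acholeplasmatales averaged 0.0307 ± 0.0449% in colon and 0.706 ± 0.541% in stool. As a genus, on the same counts, Anaeroplasma gave −3.05 ± 1.24 and missed the threshold (edgeR adjusted p = 0.0532). It was called lower by limma on centred log ratios (−7.19), by DESeq2 (−4.96), and by edgeR with library totals (−4.98), TMMwsp (−4.33), no filter (−4.47) or a stricter filter (−4.44), and in 11 of 24 fits without 1 library. Erysipelotrichales, at 0.0901 ± 0.104% in colon and 0.179 ± 0.165% in stool, was not called by edgeR, at 0.58 with TMM and −0.71 with library totals, and was called lower in colon by limma on centred log ratios (−2.39, adjusted p = 0.00141).

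In lung over colon, both extracted with the blood and tissue kit, 6 of 17 member genera were higher and 2 lower, where 33.5% of the 266 genera tested were higher and 9.4% lower. The 6 were Solobacterium (5.82), the [Clostridium] innocuum group (4.68), Holdemanella (3.95), Holdemania, Dielma and Faecalitalea, of which 4 were among the 7 listed human-stool genera, with a median of 3.95 over the list, as fitted and with bounds. Holdemania, Dielma and Faecalitalea had 0 counts in colon, and were at least 125.1-fold, 55.2-fold and 24.2-fold higher in lung, or at least 102.5-fold, 31.6-fold and 16-fold without the highest lung library of each. They passed the filter through lung alone, so they could enter the test only as higher in lung. Candidatus Stoquefichus had 0 counts in lung and 178 in colon and was at least 37.6-fold lower in lung, or at least 3.19-fold without the highest colon library (edgeR adjusted p = 0.0153). It passed the filter through colon alone, so it could enter the test only as lower in lung. Anaeroplasma fell by 3.97 ± 1.66 (edgeR adjusted p = 0.0458), a call kept in 9 of 24 fits without 1 library. Erysipelotrichales was higher and Acholeplasmatales lower, where 36.4% of the 66 orders tested were higher and 10.6% lower. Erysipelotrichales gave 2.79 ± 0.78 (edgeR adjusted p = 0.00787), beside a median of 2.08 over all orders. Acholeplasmatales fell by 4.27 ± 1.63 (edgeR adjusted p = 0.029), and with library totals gave −1.62 with an adjusted p of 0.408.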

How the data were processed

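The authors deposited a table of counts per feature and library, and per the file headers a taxonomy table with a classifier confidence per feature, a fraction between 0 and 1. Of tools and builds, the submitters' processing notes list cutadapt, Bowtie2 and GRCm39. How features were denoised and classified is not given in the sources used here. Paired reads were 300 bases long, per the labels' protocols. Of 8574 features, 619 had no taxonomy line, and the 7922 labelled as bacteria or archaea, 99.3% of counts, entered the taxa, with 566 genus and 142 order labels. The taxonomy line sets membership. Counts of an amplified gene also depend on primers and gene copies, so shares are not cell numbers.

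Shares and groups were computed with Python 3.11.15 (pandas 2.3.3, numpy 2.4.6, scipy 1.17.1, matplotlib 3.10.9). Counts were tested with edgeR 4.0.16 in R 4.3.3 (glmQLFit and glmQLFTest, TMM, Benjamini-Hochberg over all taxa of a level). Exposure was tested within each site and time, time and its interaction with exposure over the stool libraries, and sites with the arm as covariate. Alternatives were DESeq2 1.42.0, limma 3.58.1 on centred log ratios with a pseudocount of 0.5, other scalings, filters, feature sets and libraries, 1 arm only, and exact permutation tests of the orders. In simulated counts with the estimated dispersion, the edgeR fit of exposure on genera in day 28 stool recovered 0% of changes of 3 on the log2 scale and 70% of changes of 6. For genera in colon it recovered 10% and 20% of these changes, and for features in day 28 stool 0% of either size. A member not called in these contrasts may therefore still differ. Limits for counts of 0 use 3 counts over a group, and single-library intervals are 95% Wilson intervals.

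The members, the lists of genera and the tests were chosen with earlier results of these data known. Named taxa were the 4 orders, 5 genera chosen by name (Candidatus Stoquefichus, Catenibacterium, Holdemanella, Anaeroplasma and Mycoplasma), the 8 member genera with the highest mean share, every member called in any comparison, and the 2 features with most counts per order. Other members are given by counts, and a member outside this rule was chosen after its values were seen.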

Additional observations from a re-analysis of the deposited data

Results flagged for a closer look

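In 19 of 59 groups of 6 libraries with a count in at least 4, the highest or lowest library stood apart from the others by more than Dixon's 95% critical share of the group's range. That value is made for normally spread data, whereas shares are bounded by 0. An order and its own genera also share counts. The 19 groups therefore serve as a list of libraries to look at, with no rate by chance to set beside them. For Erysipelotrichales these were colon PET library 5 at 0.290%, lung PET library 6 at 5.91% and oral control library 2 at 0.294%. Unclassified Erysipelotrichaceae had stool day 28 control library 1 at 0.474% and colon control library 3 at 0.251%. Unclassified Erysipelatoclostridiaceae had stool week 1 PET library 4 at 0.165%. Catenibacterium had colon PET library 5 at 0.195%, lung PET library 6 at 4.07% and lung control library 3 at 2.13%. Turicibacter had lung PET library 6 at 0.982%, lung control library 6 at 0.263% and oral control library 2 at 0.0413%. Asteroleplasma had lung control library 6 at 0.339% and oral control library 2 at 0.131%. The [Clostridium] innocuum group had lung control library 5 at 0.417%, and Erysipelatoclostridium had lung PET library 5 at 0.0253%. Acholeplasmatales had oral PET library 5 at 0.0401% and, as the lowest of its group, oral control library 4 at 0.00565%. Mycoplasmatales had oral PET library 5 at 0.0423%.

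Lung PET library 6, set apart in 3 of these, had the lowest total of the lung libraries, 10083 counts, with 596 counts of Erysipelotrichales. Oral control library 2 was also set apart 3 times.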

How the results depend on the processing

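No paired analysis was possible because no label ties the libraries of one site or time to those of another, and the numbers were given in order within each group. Of the recomputed counts of called members, 211 were within 1.5 times the value given above and 35 were not. A count that stayed at 0 is among the 211. Exposure outside colon and time in stool had 0 called members as reported, so the 211 is no measure of how stable the calls were. The causes were not tested. In the exposure contrasts, the 1 genus called in colon became 0 with DESeq2, library totals, limma or no low count filter. Counts of 0 became 1 with DESeq2 for stool week 1 and oral swab features, with a confidence of at least 0.8 for colon orders, with no filter for lung genera, and with limma for genera over time in PET stool. For colon over stool the 3 genera became 7 with DESeq2, library totals or without the libraries of the later lab numbers, 6 with TMMwsp or a stricter filter, 5 with a confidence of at least 0.8, 10 with limma or no filter and 1 in control mice alone. Its 3 orders became 1 in either arm alone. For lung over stool the 2 orders became 1 with a confidence of at least 0.8 or in control mice alone. For lung over colon the 8 genera became 4 with DESeq2, limma or control mice alone, 5 with a stricter filter or without the later lab numbers, and 1 in PET mice alone. Its 2 orders became 0 in either arm alone and 1 with library totals, limma or no filter. For oral swab over stool the 11 genera became 6 and the 2 orders 1 in PET mice alone. Fewer libraries entered the fits of 1 arm. The later lab numbers are stool day 28 PET library 6, stool day 28 control library 6 and lung control libraries 5 and 6, with no lung PET library, so in lung they lie in the control arm alone.

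Leaving out 1 library in turn gave 0 to 1 genera for exposure in colon and for time in control stool, where it was 1 without day 28 control library 1. It gave 3 to 8 genera and 2 to 3 orders for colon over stool, 5 to 10 genera and 1 to 2 orders for lung over colon, 11 to 14 genera and 2 to 3 orders for lung over stool, and 8 to 11 genera and 1 to 2 orders for oral swab over stool. The colon exposure call was lost without PET library 1, 2, 3, 5 or 6 or without control library 1, 3 or 4, where the genus no longer passed the filter. Colon over stool had 6 to 8 genera without colon PET library 1, 2, 3, 5 or 6, colon control library 1 or 2, stool PET library 1 or 4, or stool control library 1. Lung over colon had 5 genera without colon control library 1 or lung PET library 3, and 1 order without colon control library 1 or lung PET library 4. Oral swab over stool had 1 order without oral PET library 6 or oral control library 2. Of the named taxa called, 373 recomputed values kept their direction and call, 78 lost the call and 2 reversed, both with limma on centred log ratios: Erysipelotrichales in lung over stool (−0.57) and Faecalitalea in lung over colon (−0.39). Lung totals near 10083 counts limit what could be seen of rare genera there.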
